A study of Mus musculus with 12 samples.

Results

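The NRF2 antioxidant response was followed here through 10 genes chosen by name: Nfe2l2, which encodes the transcription factor NRF2, its inhibitor Keap1, and the target genes Nqo1, Hmox1, Gclc, Gclm, Txnrd1, Srxn1, Slc7a11 and Gsr. A row of the expression table was taken where its gene name was one of these, which gave 9 of the 10 genes among 11289 genes in all, and Slc7a11 was not analysed here. Liver RNA came from 12 C57BL/6J mice, labelled as 8 to 10 weeks old, in 3 groups of 4. Both treated groups received concanavalin A (Con A), a jack bean lectin that stimulates T cells and so brings on acute hepatitis, at 15 mg/kg through the tail vein. The Con A group then received PBS after 30 min, and the Con A + MSCs group received human umbilical cord mesenchymal stromal cells (MSCs), 2000000 per mouse per the labels, by the same route in PBS. Livers were collected 24 h later, so each group was seen at 1 time point. The labels do not say what the control mice received, and for cell number and mouse age the labels and the study's methods do not give the same figures. Whole liver was sequenced, so the values of the mouse genes are those of a tissue of mixed cells.

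NRF2 is made and destroyed continuously in unstressed cells, because KEAP1 binds it and presents it to a ubiquitin ligase. Oxidants and electrophiles modify cysteines of KEAP1, NRF2 then accumulates, enters the nucleus, pairs with a small MAF protein and binds antioxidant response elements near its target genes. The targets make and recycle glutathione and thioredoxin, break down heme and detoxify quinones and other xenobiotics, and in the liver the pathway is known for limiting injury by drugs such as acetaminophen. Since NRF2 is controlled largely at the level of the protein, the RNA of Nfe2l2 is not a measure of its activity.

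Each value is a score, a whole number per row and mouse. A row pairs a gene symbol with 1 transcript, and whether its score belongs to the gene or to that transcript is not given in the sources used here, so each change is that of the row named for the gene. The scores are taken as already normalized between mice, from their near-equal totals and shared values, so the depth of sequencing is unknown. The totals lay between 17649654 and 17657159, the median score was 352 in every mouse, and the second highest score of a gene was never below 64. Groups were compared with limma on log2(score + 1) in one fit of all 12 mice, and a gene was called higher or lower at a Benjamini-Hochberg adjusted p below 0.05 over all genes with a fold change above 1.5. Fold changes on this scale understate changes of genes of low score. The p-values measure the spread between these mice, and the comparisons share mice (each group stands in 2 of the 3), so they are not independent of each other. The fit takes 1 spread per gene for all 3 groups, so the p of a comparison also depends on the mice of the group left out of it.

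The sequences that best introduce these genes are those just before their starts, where antioxidant response elements are known to lie. RefSeq promoters of GRCm38.p6, from 250 bases before to 50 bases after a start, were at hand for 7 of the 10 genes (9 promoters, 3 of them of Txnrd1) and searched on both strands for the core of the element, TGACNNNGC, and for a second form, TGANTCAGC, which was chosen after the promoters had been seen. A sequence can fit both forms at once. TGACNNNGC was in 12.39% of 32851 promoters of all genes and TGANTCAGC in 1.187%. Stretches of 100 bases are shown 5′ to 3′ on the strand of the gene, with the match in capitals, for the 4 genes that had a match before the start. The Srxn1 stretch (chr2:152105416-152105515, plus strand) holds TGANTCAGC 45 bases before the start, the Txnrd1 stretch (chr10:82859068-82859167, plus strand) and the Gclm stretch (chr3:122245377-122245476, plus strand) hold TGACNNNGC on the opposite strand 92 and 134 bases before it, and the Nfe2l2 stretch (chr2:75704814-75704913, minus strand) holds it 240 bases before it.
Srxn1: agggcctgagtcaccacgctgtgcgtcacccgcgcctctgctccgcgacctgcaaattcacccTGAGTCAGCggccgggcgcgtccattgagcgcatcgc
Txnrd1: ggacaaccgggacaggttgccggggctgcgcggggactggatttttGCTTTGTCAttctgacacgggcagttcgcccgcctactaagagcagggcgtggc
Gclm: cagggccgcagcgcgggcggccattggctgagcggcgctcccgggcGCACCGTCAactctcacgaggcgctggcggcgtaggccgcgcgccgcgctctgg
Nfe2l2: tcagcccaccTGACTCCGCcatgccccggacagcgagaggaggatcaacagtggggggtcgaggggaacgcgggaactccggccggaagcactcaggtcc
Srxn1 also had a TGACNNNGC match after its start, and the Nfe2l2 stretch overlaps an exon of E030042O20Rik. These letters were not in the promoters of Keap1, Nqo1 and Slc7a11 or in the other 2 promoters of Txnrd1 within this window. A match describes the sequence and does not show binding.

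After Con A the 9 genes did not move one way. Keap1, Srxn1, Gsr and Hmox1 were called higher than in the control group and Gclm and Nqo1 lower, while Nfe2l2, Gclc and Txnrd1 were not called. That is 4 of 9 higher and 2 of 9 lower, beside 19.5% of all genes called higher and 19.2% called lower, and the median log2 fold change was 0.57 for the 9 genes and 0.045 for all genes. With MSCs after Con A, Srxn1 was called lower than in the Con A group and Gclm higher, 1 gene each way, beside 4.38% of all genes called lower and 4.2% called higher. The median log2 difference was -0.50 for the 9 genes and 0.00024 for all genes. When 1 mouse was left out, the calls over all genes between the Con A groups ranged from 4 to 846 higher and from 2 to 729 lower, and they were fewest without Con A replicate 1 (5 and 2), Con A + MSCs replicate 2 (8 and 10) or Con A + MSCs replicate 3 (4 and 3). Against the control group, the Con A + MSCs group had 1 gene higher, Srxn1, and 1 lower, Nqo1, beside 13.6% and 13.1% of all genes, with a median of -0.01 for the 9 genes and 0.041 for all genes. In RNA of whole liver, a change in the number of cells of a type and a change of RNA per cell cannot be told apart.

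**Figure D1:**
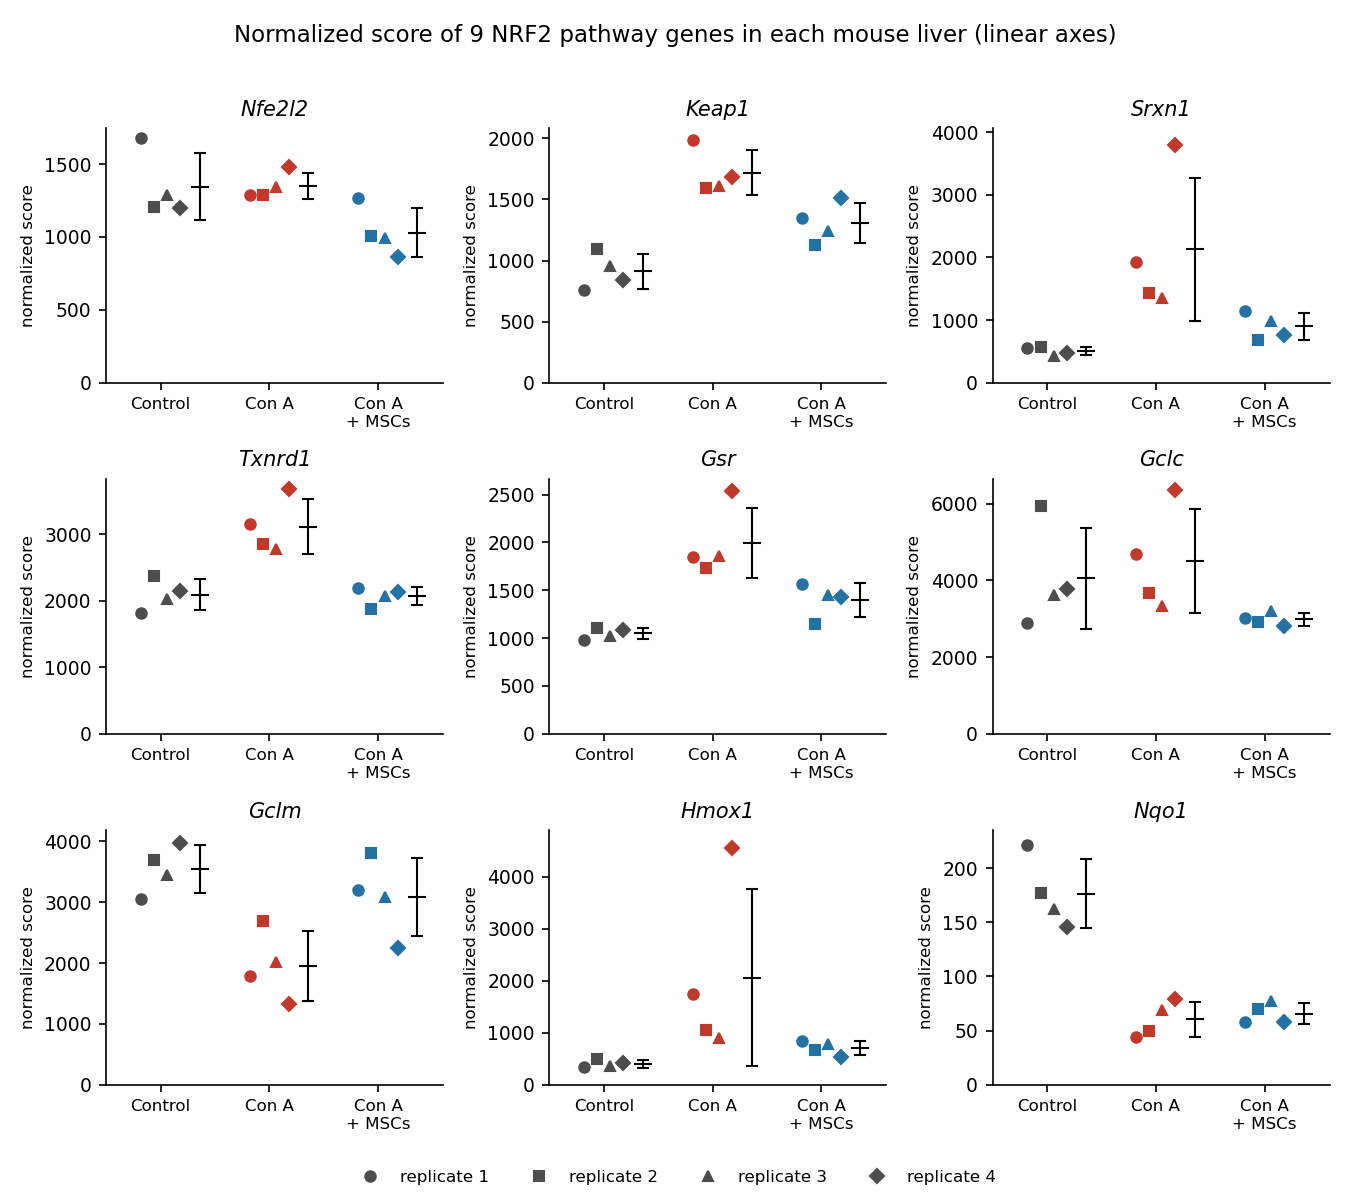
Normalized score (linear axis) of the 9 genes in each of the 4 mice of the control, Con A and Con A + MSCs groups, with the mean and SD beside each group. In the Con A group, replicate 4 reaches 3798 in Srxn1 and 4557 in Hmox1, and Nqo1 stays at or below 79 in both Con A groups against at least 146 in the control group.

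**Figure D2:**
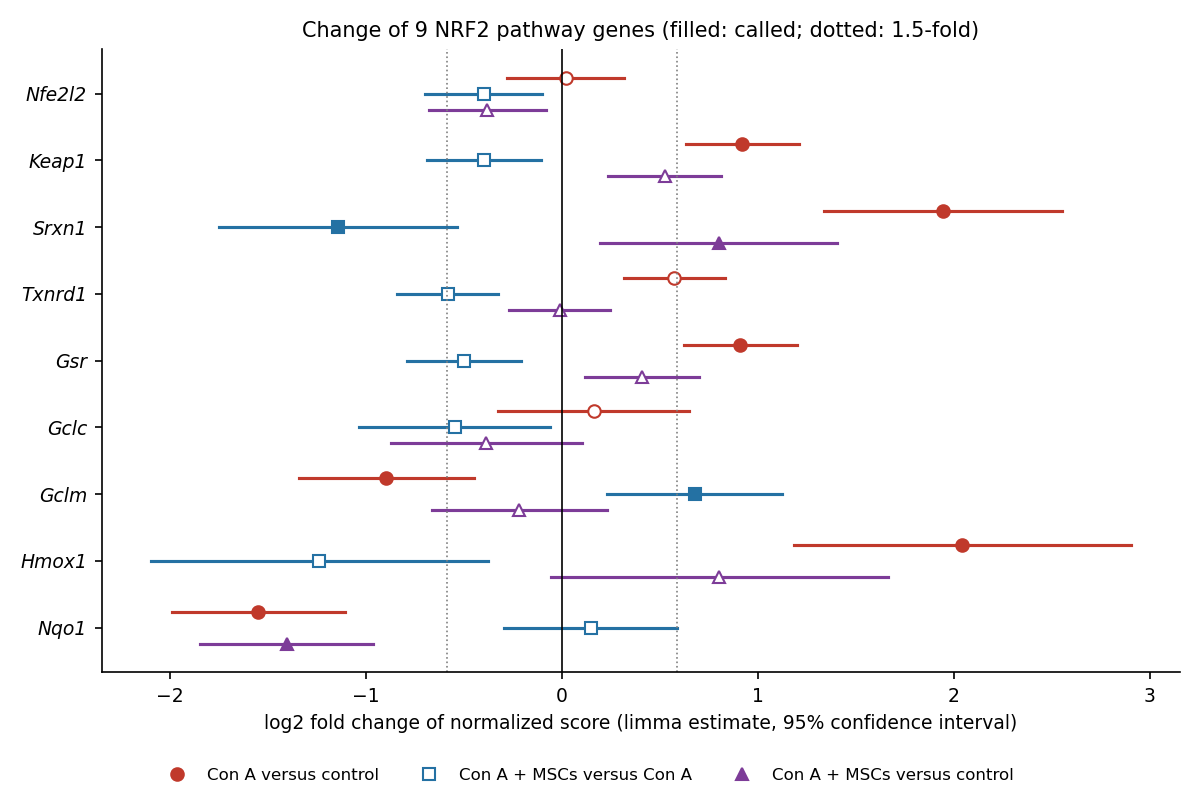
Log2 fold change of the score with its 95% confidence interval (limma) for the 9 genes in the 3 comparisons, with filled symbols for called genes and dotted lines at a 1.5-fold change. Hmox1 and Srxn1 have the largest differences between Con A and control mice, 2.04 and 1.94, and Nqo1 lies below 0 in both comparisons with control mice.

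The regulators came first. Nfe2l2 (chr2:75675513-75704641, minus strand, with the snRNA gene Gm24996 inside it) had scores of 1682, 1204, 1290 and 1198 in the 4 control mice, a mean of 1343.5 ± 229.5 (SD, n = 4). In the Con A mice the scores were 1290, 1285, 1342 and 1479, and in the Con A + MSCs mice 1266, 1004, 991 and 860. The control and Con A mice overlapped, whereas all 4 Con A + MSCs mice lay below all 4 Con A mice. The log2 difference between Con A and control mice was 0.02 (SE 0.14, limma adjusted p = 0.922), with an interval of -0.28 to 0.32. Between Con A + MSCs and Con A mice it was -0.40 (SE 0.14, adjusted p = 0.0669), which did not pass the test, and against control mice it was -0.38 (adjusted p = 0.0420), which passed on p but not on fold, with the groups overlapping.

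Keap1, the adaptor that brings NRF2 to its ubiquitin ligase, lies at chr9:21229730-21239332 on the minus strand and is overlapped by the antisense gene Gm16754, and the library kit named in the labels does not mark strand, so reads of the pair cannot be told apart. Its scores were 760, 1094, 954 and 842 in control mice, 1986, 1596, 1613 and 1680 in Con A mice and 1348, 1128, 1238 and 1514 in Con A + MSCs mice. The 3 groups were separate, with the Con A + MSCs mice between the other two. Keap1 rose 1.89-fold after Con A (log2 0.92, SE 0.13, limma adjusted p = 0.000113), from a mean of 912.5 ± 145 to 1719 ± 182 (SD, n = 4 each). With MSCs the log2 difference from Con A mice was -0.40 (SE 0.13, adjusted p = 0.0626), which did not pass, and that from control mice was 0.52, or 1.44-fold (adjusted p = 0.00819), under the fold threshold. Without Con A + MSCs replicate 2 or control replicate 2 the last difference was 0.59 and 0.61, and was called.

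Of the thioredoxin arm, Srxn1 encodes sulfiredoxin, which restores over-oxidized peroxiredoxins. The table pairs its row (chr2:152105516-152109211, plus strand) with a transcript of 446 bases that is annotated as processed rather than protein coding, so the values may be those of this transcript and not of the coding RNA. Scores were 548, 568, 435 and 481 in control mice, 1935, 1436, 1356 and 3798 in Con A mice and 1152, 682, 992 and 768 in Con A + MSCs mice. Every Con A mouse lay above every mouse of the other groups, and every Con A + MSCs mouse above every control mouse. Srxn1 rose 3.84-fold after Con A (log2 1.94, SE 0.28, limma adjusted p = 0.000106). It was 2.21-fold lower with MSCs than after Con A alone (log2 -1.14, SE 0.28, adjusted p = 0.0282) and 1.74-fold higher than in control mice (log2 0.80, adjusted p = 0.0370). Con A replicate 4 stood highest, and without it the differences were 1.62 from control (adjusted p = 3.141e-05) and -0.82 between the Con A groups (adjusted p = 0.0411). The call between the Con A groups was lost without Con A replicate 1 (adjusted p = 0.0804) or Con A + MSCs replicate 2 (0.0892) or 3 (0.0685), and in a fit of only the 8 mice compared (0.0559). The call against control was lost without Con A + MSCs replicate 1 or 3 or any of the 4 control mice, with adjusted p up to 0.108.

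Txnrd1 encodes the cytosolic thioredoxin reductase, which recycles thioredoxin with NADPH, and lies at chr10:82859206-82897724 on the plus strand, with Eid3 on the same strand inside it. Its scores were 1810, 2366, 2029 and 2152 in control mice, 3148, 2846, 2774 and 3681 in Con A mice and 2188, 1876, 2066 and 2132 in Con A + MSCs mice. The Con A mice lay above both other groups, which overlapped. The log2 difference of Con A from control mice was 0.57 (1.49-fold, SE 0.12, limma adjusted p = 0.00145), just under the fold threshold, and that of Con A + MSCs from Con A mice was -0.58 (SE 0.12, adjusted p = 0.0218), under it as well. Leaving out 1 mouse was enough to bring either over it: the first without Con A replicate 2 (0.61) or 3 (0.62) or control replicate 2 (0.63) or 4 (0.59), and the second without Con A + MSCs replicate 1 (-0.61) or 4 (-0.60) or Con A replicate 2 (-0.62) or 3 (-0.64). Between Con A + MSCs and control mice the difference was -0.01, with an interval of -0.27 to 0.25 (adjusted p = 0.944).

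Gsr encodes glutathione reductase, which returns oxidized glutathione to its reduced form. Its row (chr8:33652523-33674199, plus strand) carries a processed, not protein coding, transcript of 347 bases, with the same doubt. Control mice had scores of 978, 1106, 1026 and 1085, Con A mice 1845, 1729, 1858 and 2539, and Con A + MSCs mice 1568, 1148, 1453 and 1427. The groups were separate, with the Con A + MSCs mice between the other two. Gsr rose 1.88-fold after Con A (log2 0.91, SE 0.13, limma adjusted p = 0.000124). The difference between the Con A groups was -0.50 (SE 0.13, adjusted p = 0.0356) and that from control mice with MSCs was 0.41 (adjusted p = 0.0280), and neither reached a 1.5-fold change.

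The subunits of glutamate-cysteine ligase, which catalyses the first and rate-limiting step of glutathione synthesis, are Gclc and Gclm. Gclc, the catalytic subunit (chr9:77754535-77794485, plus strand), had scores of 2885, 5952, 3608 and 3765 in control mice, 4682, 3668, 3338 and 6356 in Con A mice and 3024, 2921, 3212 and 2804 in Con A + MSCs mice. Control and Con A mice overlapped over nearly their whole range, and the Con A + MSCs mice were close together, with a mean of 2990.25 ± 173 against 4511 ± 1356 in Con A mice (SD, n = 4 each), and below all of the latter. The log2 difference was 0.16 for Con A against control (SE 0.22, limma adjusted p = 0.562, interval -0.33 to 0.65) and -0.55 between the Con A groups (SE 0.22, adjusted p = 0.106, interval -1.04 to -0.06). Neither passed, nor did the difference of -0.39 between Con A + MSCs and control mice (adjusted p = 0.186).

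Gclm, the modifier subunit that improves the catalysis of Gclc, lies at chr3:122245557-122269984 on the plus strand, where Gm17494 on the opposite strand and the pseudogene Gm6061 overlap it. Scores were 3046, 3698, 3448 and 3976 in control mice, 1780, 2696, 2012 and 1330 in Con A mice and 3198, 3804, 3087 and 2242 in Con A + MSCs mice. All Con A mice lay below all control mice, and the Con A + MSCs mice overlapped both groups. Gclm was 1.86-fold lower after Con A (log2 -0.90, SE 0.21, limma adjusted p = 0.00279). With MSCs it was 1.60-fold higher than after Con A alone (log2 0.68, SE 0.21, adjusted p = 0.0487), and its difference from control was -0.22, with an interval of -0.66 to 0.23 (adjusted p = 0.421). The call between the Con A groups lay at the threshold: it was lost in 9 of 12 fits that left out 1 mouse, with adjusted p up to 0.134, and held only without control replicate 1, Con A replicate 2 or Con A + MSCs replicate 4. It was also lost in a fit of only the 8 mice compared (adjusted p = 0.0817) and in one without a trend (adjusted p = 0.0574). Without Con A replicate 4, the lowest of its group, the difference was 0.51 (adjusted p = 0.111).

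Hmox1 encodes heme oxygenase 1, which opens heme to biliverdin, iron and carbon monoxide, and lies at chr8:75093591-75100596 on the plus strand. Control mice had scores of 340, 500, 354 and 424, Con A mice 1737, 1051, 889 and 4557, and Con A + MSCs mice 844, 672, 788 and 530. All Con A mice were above both other groups and all Con A + MSCs mice above the control mice, but the Con A mice were spread widely around their mean of 2058.5 ± 1706 (SD, n = 4). Hmox1 rose 4.12-fold after Con A (log2 2.04, SE 0.40, limma adjusted p = 0.000936), and 1.55 on the log2 scale without Con A replicate 4 (adjusted p = 0.000179). The difference with MSCs was -1.24 (interval -2.10 to -0.38, adjusted p = 0.0552), which did not pass. It was -0.75 without Con A replicate 4 (adjusted p = 0.0771), and it was called without Con A replicate 2 (-1.46, adjusted p = 0.0325) or 3 (-1.54, adjusted p = 0.0437). Against control mice Hmox1 differed by 0.80 with MSCs (interval -0.06 to 1.66, adjusted p = 0.125), and the same difference was called when Con A replicate 4 left the fit (adjusted p = 0.00924) or when all 4 Con A mice did (adjusted p = 0.00522).

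Nqo1 encodes the quinone reductase often used as a readout of NRF2, and lies at chr8:107388225-107403206 on the minus strand. Its scores were 221, 177, 162 and 146 in control mice, 44, 50, 69 and 79 in Con A mice and 58, 70, 77 and 58 in Con A + MSCs mice. Both Con A groups lay wholly below the control mice and overlapped each other. Nqo1 fell 2.93-fold after Con A (log2 -1.55, SE 0.20, limma adjusted p = 5.58e-05), from 176.5 ± 32.3 to 60.5 ± 16.3 (SD, n = 4 each). It was 2.65-fold lower than in control mice with MSCs too (log2 -1.40, SE 0.20, adjusted p = 0.000228), and the difference between the Con A groups was 0.15, with an interval of -0.30 to 0.59 (adjusted p = 0.638). These calls held in each of the 12 fits that left out 1 mouse.

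One Con A mouse weighed on many of these values. Con A replicate 4 was the highest of its group in 7 of the 9 genes and the lowest in 1, Gclm, with a median distance of 0.42 (log2) from its group mean. The 6 calls between Con A and control mice held without it, and the log2 difference of Gclc went from 0.16 to -0.02. Among the other groups, control replicate 2 was highest in 6 genes, and Con A + MSCs replicate 1 in 5.

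**Figure D3:**
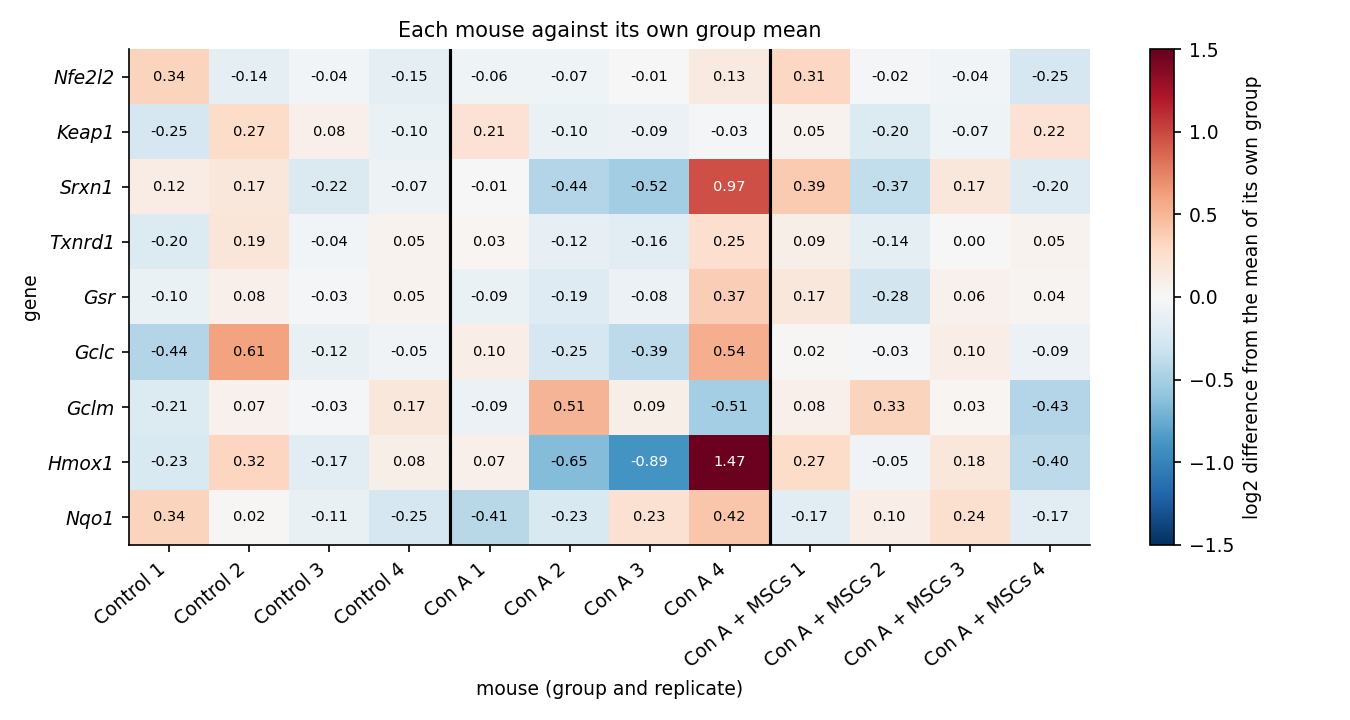
Difference of each mouse from the mean of its own group (log2 scale, colour and number) for the 9 genes in the 12 mice. Con A replicate 4 stands out with 1.47 in Hmox1 and 0.97 in Srxn1, and with -0.51 in Gclm.

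Beyond these genes, 82 other redox genes in 7 lists were followed, of which 78 were in the table. After Con A 13 of the 78 were called higher (16.7%) and 29 lower (37.2%), with a median log2 fold change of -0.29, beside 19.5% and 19.2% of all genes. The detoxification targets, the largest list, held 13 of these 29 lower genes, with 13 of 20 lower (65%) and 2 higher and a median of -1.06. By share, superoxide and peroxide removal had more lower genes (75% of 4). Gstm3 and Gsta3, glutathione transferases, fell (log2 -4.19 and -3.08), Gstm3 from a mean score of 895 ± 291 to 52 ± 32.8 (SD, n = 4 each). Gsta1 and Gstp1, of the same superfamily, rose by 4.18 and 1.05, Gsta1 from scores of 44, 44, 1 and 36 to 328, 371, 298 and 436. Without control replicate 3, which had the score of 1, Gsta1 differed by 3.08 from control after Con A and by 2.66 with MSCs. The second highest score of a gene was never below 64, so Gsta1 was in the table only through the Con A groups. Its direction against control was largely fixed by that. Members of these families are similar in sequence, so the split of reads among them is uncertain.

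Removal of superoxide and hydrogen peroxide split by enzyme after Con A. Sod2, the mitochondrial superoxide dismutase, rose (log2 1.77), whereas Cat, encoding catalase, and Sod3, the secreted dismutase, fell (log2 -2.63 and -1.73), and 1 of the 4 genes was higher and 3 lower. Cat was tied at 58393 in all 4 control mice and was 8577, 14006, 9922 and 6578 in Con A mice. In the glutathione system 3 of 12 genes were higher (25%) and 4 lower (33.3%), beside 19.5% and 19.2% of all genes. Gpx3, the plasma glutathione peroxidase, rose from 135 ± 23.1 to 589 ± 41.7 (SD, n = 4 each, log2 2.13), and Oplah, which returns oxoproline to glutamate, by 1.25. Slc3a2, the heavy chain that partners the product of Slc7a11, was the third that rose (log2 1.12) and was named after its values were seen. Cth, which makes cysteine from cystathionine, fell by 2.89 on the log2 scale, from scores of 10356, 4658, 4380 and 3804 to 698, 1308, 1048 and 276, and Gstk1, a mitochondrial and peroxisomal glutathione transferase, fell by 1.58.

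Of 12 regulators and partners of NRF2, 4 were higher after Con A (33.3%) and 0 lower. The shares of all genes to set beside each list here are 19.5% higher and 19.2% lower. Maff, a small MAF protein, rose most (log2 2.94), from scores of 42, 60, 43 and 52 to 436, 213, 268 and 844, and Syvn1, a ubiquitin ligase that can target NRF2, by 1.24. The second highest score of a gene was never below 64, so Maff was in the table only through the Con A groups. Its direction and its place among the 4 were largely fixed by that. Mafk (0.66) and Bach1 (0.61), named after their values were seen, completed the 4, and BACH1 is a repressor that competes with NRF2 for the same elements. Their calls did not hold without Con A replicate 4 (Mafk 0.50, Bach1 0.45), nor did that of Mafk without control replicate 3 (0.55) and that of Bach1 without Con A replicate 1 (0.55) or control replicate 1 (0.55). Thioredoxin and peroxiredoxin genes counted 2 higher, Txnl1 (0.81) and Txn1 (0.77), and 2 lower, Prdx4 (-1.02) and Txnrd2 (-0.63), of 12. That is 16.7% each way, near the shares of all genes. Without Con A replicate 4 Txnl1 (0.57) and Txnrd2 (-0.48) were not called, nor was Txnrd2 without control replicate 1 (-0.58). For NADPH supply, Me1 and Idh1, which make NADPH in the cytosol, fell (-1.73 and -1.11), and the other 5 of 7 genes were not called. Of 11 heme and iron genes 1 was higher, the ferritin heavy chain Fth1 (1.22), and 5 were lower, led by the iron exporter Slc40a1 (-1.94) and the ferritin light chain Ftl1 (-1.41). Ftl1 was tied at 72682 in all 4 control mice.

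**Figure D4:**
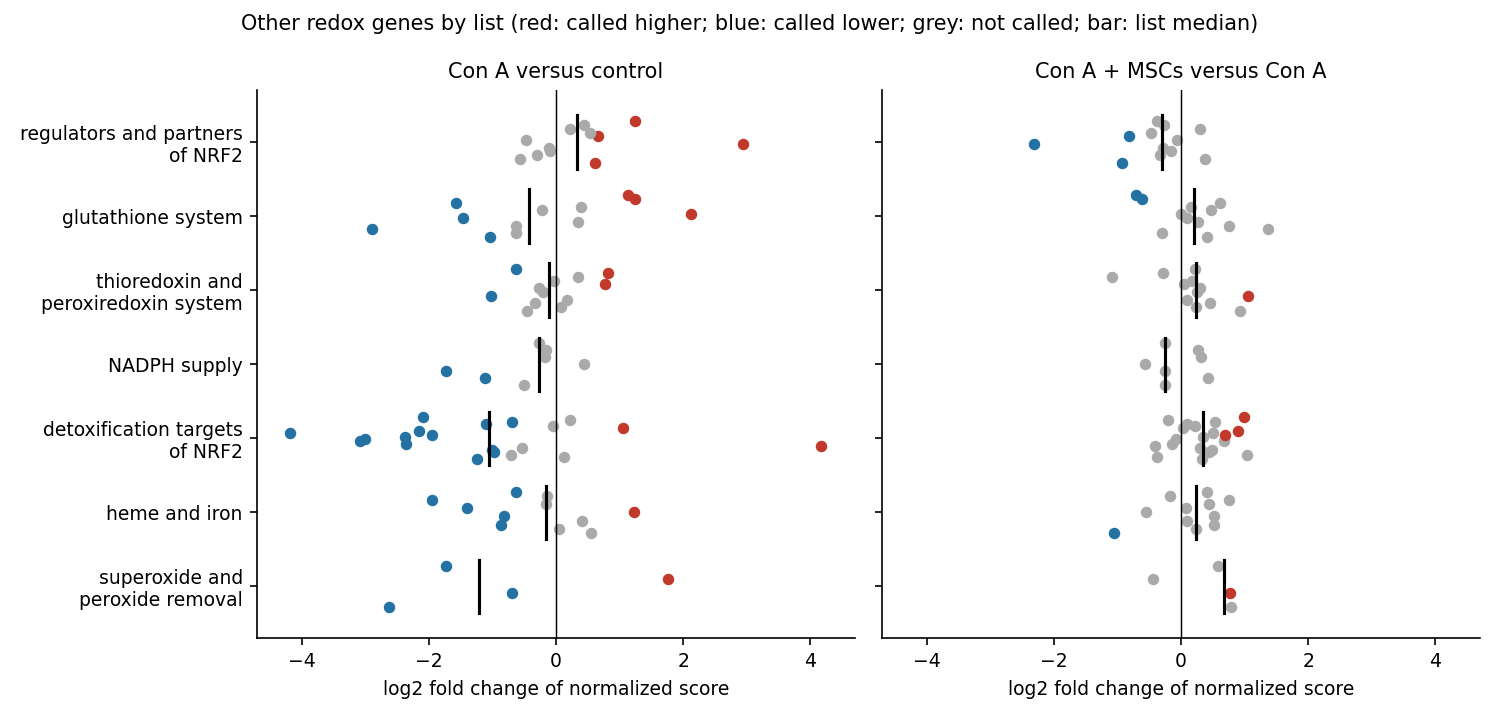
Log2 fold change of the score of 78 other redox genes by list for Con A against control mice (left) and Con A + MSCs against Con A mice (right), with called genes in colour and a bar at each list's median. The detoxification targets have a median of -1.06 on the left and 0.34 on the right.

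With MSCs after Con A, 5 of the 78 were called higher and 6 lower than in the Con A group (6.41% and 7.69%), beside 4.2% and 4.38% of all genes, and the median was 0.22. Among regulators Maff fell (log2 -2.31, limma adjusted p = 0.0208), to scores of 126, 29, 92 and 98. Bach1 (-0.93, adjusted p = 0.0246) and Mafk (-0.82, adjusted p = 0.0273), the latter named after its values were seen, fell as well. The scores of Maff, Bach1 and Mafk with MSCs did not overlap those of the Con A mice. This adds no support, because these genes were named for their calls in the same comparison. The uncalled Nfe2l2, Keap1, Gclc and Hmox1 were separate between the Con A groups too. The other lower genes were Slc3a2 (-0.71) and Oplah (-0.62) of the glutathione system and Alas1 (-1.06), the first enzyme of heme synthesis. Higher were Prdx4, the peroxiredoxin of the endoplasmic reticulum (1.05), Sod1, the cytosolic superoxide dismutase (0.76), and 3 detoxification genes, Ugt1a6a (0.98), Gstm4 (0.89) and, named after its values were seen, Gstm2 (0.70). Of the 9 genes named by rule, 8 lost their call in at least 1 fit that left out 1 mouse, and Prdx4 did not. Mafk and Gstm2 lost theirs as well, in 4 such fits each, among them those without Con A replicate 1 or Con A + MSCs replicate 2 or 3. The counts changed when 1 mouse was left out, while 0 of the 9 genes named by rule moved by more than 1.5-fold. Without Con A replicate 1 or Con A + MSCs replicate 2 or 3 the counts were 1 higher and 0 lower. They were 13 higher without Con A replicate 2 and 12 higher without Con A + MSCs replicate 4. Without Con A replicate 3 they were 2 higher and 3 lower, without Con A replicate 4 2 and 2, and without Con A + MSCs replicate 1 2 higher.

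Against control mice, the Con A + MSCs group had 9 of the 78 genes higher (11.5%) and 21 lower (26.9%), beside 13.6% and 13.1% of all genes, with a median of -0.21. Detoxification targets, the largest list, again held the most lower genes, with 10 of 20, a share of 50% that superoxide and peroxide removal had too. They were led by Gstm3 (-3.69) and Gsta4 (-3.07), and 2 were higher, Gsta1 (3.76) and Gstp1 (1.08). Gpx3 (2.13) and Oplah (0.63) were higher and Cth (-1.52) and Gpx1 (-1.37) lower in the glutathione system, where 3 were higher and 4 lower. Cat (-1.85) and Sod3 (-1.15) were lower and Sod2 (1.33) higher. Fth1 (0.67) was higher and Ftl1 (-1.32) and Slc40a1 (-1.19) lower, Me1 (-1.99) and Idh1 (-0.68) were lower, Txn1 (0.81) was higher, and of the regulators Syvn1 (0.85) was higher and Crebbp (-0.63) lower. Of these 19 genes 5 lost their call in at least 1 fit that left out 1 mouse (Cth, Fth1, Oplah, Syvn1 and Crebbp).

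Markers of liver cell types moved with the groups, and their part in the results above was not tested. Over all genes 19.5% were called higher and 19.2% lower after Con A. Between the Con A groups the shares were 4.2% and 4.38%, so a list this short can hold 0 calls there. As the second highest score of a gene was never below 64, a marker low in some groups is in the table only through the others. Of 8 hepatocyte markers 4 were called lower after Con A (Serpina1c, Apoa1, Ttr and Asgr1) and 0 higher, while Hnf4a and Apob were not called (0.23 and 0.42), Alb and Cps1 were tied in every mouse, and 0 were called between the Con A groups. Their summed score was between 1112012 and 1356418 in control mice, 660265 and 727006 in Con A mice and 694054 and 752229 with MSCs. Much of the control sum is made of tied scores, Alb and Serpina1c at 341028 and Apoa1 at 147628 in all 4 control mice, and Serpina1c, Apoa1 and Ttr have the largest differences in mean score. All 8 Kupffer cell markers were lower after Con A, with sums of 5059 to 7972, 678 to 1319 and 577 to 1791 in the same order, and 0 were called between the Con A groups.

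Of the 9 of 10 monocyte and neutrophil markers in the table, 7 were higher after Con A and 1, Lyz2, was lower. S100a8, S100a9, Ly6c2 and Cd14 had control means of 15.75, 20.25, 9.75 and 55.5, below 64. They were in the table through the Con A groups, so the count of higher markers was partly fixed by that. Their sums were 1071 to 1465 in control mice, 6341 to 7832 in Con A mice and 2897 to 5124 with MSCs, but between the Con A groups only Cd14 was called, lower with MSCs (mean scores 4709.5 ± 699.6 and 1972 ± 730.2, SD, n = 4 each), and the median log2 difference of the 9 was 0.043. Of 7 sinusoidal endothelial markers 4 were lower after Con A and 1, Lyve1, was higher (log2 1.29), with sums of 2496 to 3565, 1171 to 1763 and 1464 to 1864. With MSCs Stab2 of this list was higher than in Con A mice, and Lyve1 and Cdh5 were lower. Of 7 stellate cell markers 3 were lower after Con A, Reln (-2.60), Lrat (-2.24) and Pdgfrb (-1.06), and 0 higher, and with MSCs 0 differed by call from the Con A mice. The sums of this list, in which Dcn has the highest scores, overlapped among the groups, from 4498 to 9520. The 5 of 7 red blood cell markers in the table were all lower after Con A, with sums of 4523 to 8415, 1944 to 3326 and 1625 to 2554. T and NK cells were covered by only 3 of 9 markers, all higher after Con A (sums of 16 to 50, 404 to 817 and 426 to 740, with 1 marker at 0 in a control mouse), and B cells by 1 of 5, which was lower. Even summed, the 3 T and NK cell markers stayed under 64 in control mice. They were in the table only through the Con A groups, which largely fixed their direction. The marker genes named here were chosen after their values were seen.

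As a description, the gene whose log2 score was most like that of a member over the 12 mice was Spink5 for Nfe2l2 (Pearson r = 0.887), Atp6ap1 for Keap1 (0.982) and Itgav for Txnrd1 (0.977). It was Tgm2 for both Gsr (0.988) and Hmox1 (0.965), Fam53c for Gclc (0.917), F13b for Gclm (0.984) and Mcu for Nqo1 (0.977). These coefficients contain the differences between the 3 groups, which many genes share.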

How the data were processed

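Poly-A selected liver RNA from 12 mice was read in pairs of 150 bp, with 4 mice in each of 3 groups taken from the sample labels. The authors deposited 1 table, called counts by its name, of whole numbers that are treated here as scores normalized between mice, because their totals are nearly equal and many values are tied. Each row pairs a gene with 1 transcript, and which of them a value belongs to is not given. The submitters' processing notes list Bowtie2 2.2.1, RSEM 1.2.18 and mm10, and the study names DESeq2 for its own calls. How the normalization was done, and whether counting used strand, is not given in the sources used here.

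Scores were fitted as log2(score + 1) with limma 3.58.1 in R 4.3.3 (lmFit, eBayes with a trend, no covariates, all 12 mice). A call needed an adjusted p (Benjamini-Hochberg over 11289 genes) below 0.05 together with a fold change above 1.5. The fit was tested on simulated data. Summaries, sequence searches and plots were made in Python 3.11.15 with numpy 2.4.6, pandas 2.3.3 and matplotlib 3.10.9. Coordinates are those of the table, on mm10 (GRCm38).

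The members and gene lists were chosen with earlier results of these data known. All members were named, and of each other list and comparison the 2 called genes of largest change in each direction, any others being marked. For each member the gene of highest correlation was named, except that the one for Srxn1 is not reported here. Cbr3, Abcc4, Gpx2 and Ggt1 of the other lists were not analysed here. As alternatives the fit was repeated with quantile normalization, with median centring, with a pseudocount of 10, on genes whose mean score was 100 or more, without a trend, on only the 8 mice compared, with a fold change above 2, with the unadjusted p, with a block for the replicate number and without each mouse in turn.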

Additional observations from a re-analysis of the deposited data

Results flagged for a closer look

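Of 27 sets of 4 mice (9 genes in 3 groups), 1 held a mouse that stood apart from the other 3 beyond Dixon's critical value at the 95% level, and chance alone marks about 1 set in 20. It was Gsr in the Con A group, where replicate 4 had a score of 2539 and the others 1845, 1729 and 1858. Its gap to the nearest mouse was 0.841 of the range of the group. Without that mouse Gsr was still called higher after Con A (log2 0.79, limma adjusted p = 0.000126), and the difference between the Con A groups was -0.38 (adjusted p = 0.0687).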

How the results depend on the processing

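Quantile normalization, median centring, a pseudocount of 10 and a minimum mean score of 100 left the counts of called members as they were. Median centring could not change them, because the median score was 352 in every mouse. Quantile normalization could change little, because the mice already shared values, and the minimum mean score dropped no called member. With a fold change above 2, members called after Con A were 2 higher and 1 lower. Between the Con A groups 0 members were then higher, and 1 other redox gene was higher and 2 lower, and against control with MSCs 0 members and 4 other redox genes were higher. Without a trend 0 members were higher between the Con A groups. With only the 8 mice compared 0 were higher and 0 lower between the Con A groups, and 2 were higher with MSCs against control. By the unadjusted p 2 members were lower and 11 other redox genes higher between the Con A groups. With the replicate block 8 other redox genes were higher there, and the counts of called members did not change. Whether the replicate numbers pair the mice was not settled. Over 12 same-numbered pairs the correlation of deviations ran from -0.118 to 0.375, and 4 were over 0.1. Different-numbered pairs ran from -0.385 to 0.141. Over all genes between the Con A groups, the block gave 679 higher and 618 lower, beside 474 and 495 without it.

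With each mouse left out in turn, members called between the Con A groups ranged from 0 to 1 higher and 0 to 3 lower, other redox genes from 1 to 13 higher and 0 to 7 lower, and members higher with MSCs against control from 0 to 2. The sign changed for Nfe2l2 (-0.032 to 0.13) and Gclc (-0.019 to 0.36) after Con A and for Txnrd1 with MSCs against control (-0.079 to 0.050). For single members, 178 of 189 alternatives kept direction and side of the threshold after Con A, 166 of 189 between the Con A groups and 175 of 189 with MSCs against control. Median centring, which could not differ from the main fit, is among these alternatives. The cause of the changes in sign and call was not tested. DESeq2 was not run, because it needs counts. The depth is unknown, and 4 mice per group limit the precision.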
